A study of Mus musculus with 8 samples.

Results

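CENP-A loading was described through 4 genes, chosen by symbol: Cenpa, Hjurp, Mis18a and Oip5. All 4 were found among the 56953 gene identifiers of the count table, of which 28746 had a count in at least 1 library, and all 4 passed the filter on low counts in every comparison. The 8 RNA libraries were made from cultures of the mouse colorectal carcinoma cell line CT26 or from transplanted tumours of it, which can also hold host cells. The tumour groups were transplanted CT26 tumours that received mLJZD, an abbreviation the labels leave unexpanded, or normal saline. The culture groups were CT26 cells kept for 48 hours with 10% serum containing mLJZD or with 10% control serum, after growth in medium with fetal bovine serum. Each group had 2 libraries. No genetic change is labelled in any group, and the cells cultured or transplanted were of 1 cell line. The labels give no host strain or age, no site of transplantation, no dose and no source of the serum, and whether libraries of 1 group came from separate animals or cultures is not labelled. The p-values therefore cover no more than the spread between the sequenced libraries, and that spread may be technical. The title of the series concerns CHEK1, histone acetylation and the centromere protein CENPM; these libraries measure RNA only.

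CENP-A is the histone H3 variant that replaces H3 in the nucleosomes of the centromere and marks the place where the kinetochore is built. Its amount is diluted when DNA is replicated and is restored after mitosis, when the chaperone HJURP delivers new CENP-A with histone H4. The Mis18 complex, whose subunits Mis18α and Mis18β are encoded by Mis18a and Oip5, licenses the centromere for this step. Polo-like kinase 1 promotes the licensing and cyclin-dependent kinases hold it back until mitosis ends, as worked out mainly in human cells. Transcripts of CENP-A and HJURP are known to rise towards G2 and mitosis in proliferating cells, tumour cells among them.

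Genes transcribed late in the cell cycle often carry a cell cycle genes homology region (CHR), bound by MuvB complexes, and CCAAT boxes, bound by NF-Y. The promoters of the 4 genes are printed because CENP-A loading genes are read late in the cycle and because all 4 had lower values in mLJZD tumours. RefSeq sequence of GRCm38.p6 matched 4 of 4 genes, and each window holds 250 bases before the start of the gene and 50 bases from it, 5′ to 3′ on the strand of the gene. Capitals mark matches on either strand to the CHR letters TTTGAA, to the CHR variant TTCGAA and to CCAAT. The window of Cenpa is chr5:30666636-30666935 on the plus strand, that of Hjurp chr1:88277530-88277829 on the minus strand, that of Mis18a chr16:90727322-90727621 on the minus strand and that of Oip5 chr2:119618456-119618755 on the minus strand.
Cenpa: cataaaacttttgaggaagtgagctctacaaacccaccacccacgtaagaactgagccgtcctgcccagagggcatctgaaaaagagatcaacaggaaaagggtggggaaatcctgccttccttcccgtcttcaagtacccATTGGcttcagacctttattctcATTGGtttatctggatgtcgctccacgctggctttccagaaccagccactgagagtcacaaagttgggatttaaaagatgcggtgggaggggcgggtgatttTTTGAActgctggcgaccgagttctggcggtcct
Hjurp: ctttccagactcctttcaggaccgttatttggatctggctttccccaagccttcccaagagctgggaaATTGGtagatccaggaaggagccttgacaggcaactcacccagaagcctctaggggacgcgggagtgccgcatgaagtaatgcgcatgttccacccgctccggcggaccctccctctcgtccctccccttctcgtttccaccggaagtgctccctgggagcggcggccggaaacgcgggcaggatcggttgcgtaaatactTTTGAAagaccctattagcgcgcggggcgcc
Mis18a: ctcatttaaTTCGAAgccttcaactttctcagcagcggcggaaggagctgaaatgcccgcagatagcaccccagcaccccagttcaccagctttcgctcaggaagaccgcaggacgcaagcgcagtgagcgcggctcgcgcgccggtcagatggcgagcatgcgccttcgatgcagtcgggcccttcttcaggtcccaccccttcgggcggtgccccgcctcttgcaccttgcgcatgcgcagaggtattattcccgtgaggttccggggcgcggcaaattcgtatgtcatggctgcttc
Oip5: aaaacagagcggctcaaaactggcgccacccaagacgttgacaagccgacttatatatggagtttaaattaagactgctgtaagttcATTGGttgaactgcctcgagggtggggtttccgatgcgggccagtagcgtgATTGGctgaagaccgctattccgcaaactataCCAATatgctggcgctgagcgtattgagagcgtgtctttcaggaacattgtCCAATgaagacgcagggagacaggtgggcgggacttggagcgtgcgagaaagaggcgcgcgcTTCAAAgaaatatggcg
The windows of Cenpa and Hjurp held TTTGAA on the strand of the gene, 16 to 21 and 19 to 24 bases after the first base of the gene. Oip5 held it on the opposite strand, 33 to 38 bases after. Mis18a held no TTTGAA and 1 match to TTCGAA, which reads alike on both strands, at -241 to -236 on the same scale. CCAAT was matched 2 times in Cenpa, 1 time in Hjurp and 4 times in Oip5, and had no match in the window of Mis18a. No matches overlapped. Of 32851 promoter windows of the same length, 17.9% held TTTGAA, 1.56% held TTCGAA, 37.4% held CCAAT and 7.52% held CCAAT with either CHR form. At least 2 CCAAT matches were present in 11.7% of windows and at least 3 in 3.37%. The E2F letters TTTCCCGC and TTTGGCGC, present in 1.07% and 0.514% of windows, had no match in the 4 windows. A match describes letters only, and these libraries hold no measure of binding.

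**Figure D1:**
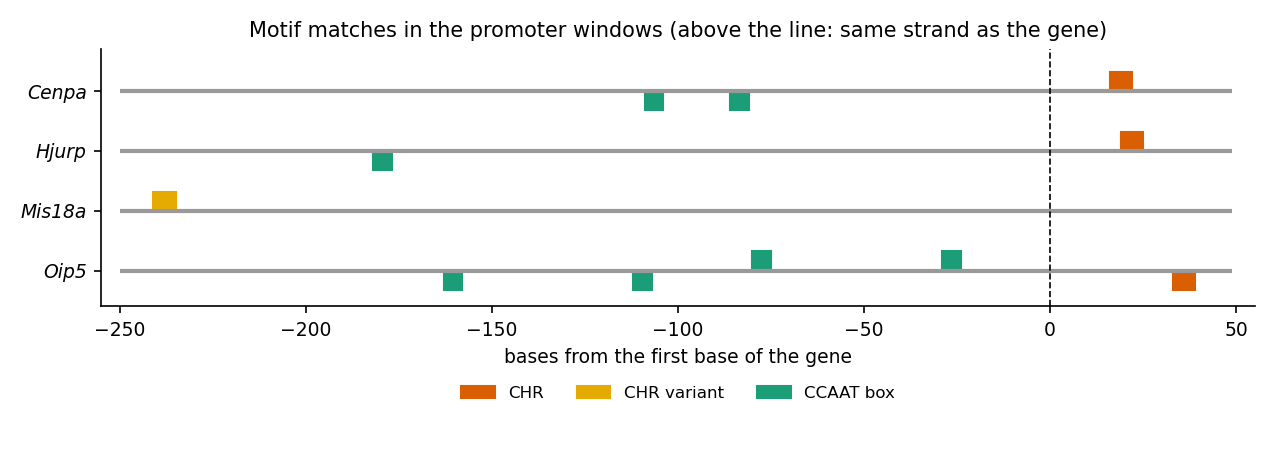
Motif matches in the promoter windows of the 4 genes, against distance in bases from the start of the gene (dashed line); boxes above a line are on the strand of the gene and boxes below it on the opposite strand. TTTGAA lies within 38 bases after the start in Cenpa, Hjurp and Oip5, while the window of Mis18a has only the variant, at its far upstream end.

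Library totals ran from 16594912 to 18324302 counts in mLJZD tumours, were 19692863 and 19793632 in saline tumours, 20439449 and 29363861 in mLJZD cultures, and 23426845 and 22196014 in control cultures. Of the carcinoma epithelium markers, Cdx2 was at 0 in both tumour groups, and Epcam and Cldn4 were at 0 in both culture groups, while the 10 markers summed to 238 to 240 CPM (counts scaled to the library total) in mLJZD cultures and 174 to 187 CPM in control cultures. The control cultures stood apart from the other libraries in their relation to transcript length. Over 13383 protein-coding genes, centred log2 CPM changed by -1.06 and -0.87 per unit of log10 transcript length in the control cultures, and by 0.21 to 0.37 in each of the other 6 libraries. Because these 2 libraries are the whole control group, the results of the 4 genes that rest on them are given as tested and with the length and GC trend removed, and could not be given without them.

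Cenpa (ENSMUSG00000029177), the centromeric histone itself, had 79.4 and 84.5 CPM in mLJZD tumours, against 94.5 and 94.5 CPM in saline tumours. In cultures it had 91.2 and 88.0 CPM with mLJZD serum, against 146 and 122 CPM with control serum. The control cultures were thus the highest group and the mLJZD tumours the lowest, and no neighbouring groups in the order overlapped. The share of all genes whose groups separate in this way was not counted. Order and overlap are therefore descriptions only, here and for the other genes below. Of all genes tested in edgeR, 31.4% were called between the tumour groups and 55.4% between the culture groups. Between saline tumours and control cultures 80.6% were called.

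Hjurp (ENSMUSG00000044783), the CENP-A chaperone, had 207 and 225 CPM in mLJZD tumours, against 350 and 345 CPM in saline tumours. It had 318 and 305 CPM in mLJZD cultures, against 230 and 256 CPM in control cultures. From high to low, the groups ran saline tumours, mLJZD cultures, control cultures and mLJZD tumours, with no overlap between neighbours, although the gap between the last 2 groups was only 4.26 CPM. This order is of CPM without removal of the length and GC trend. With it removed, log2 differences from control cultures were -0.41 in saline tumours and -0.11 in mLJZD cultures, the latter not called. The place of the control cultures in the order was thus not kept.

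Mis18a (ENSMUSG00000022978), the α subunit of the licensing complex, had 21.3 and 19.2 CPM in mLJZD tumours, against 26.8 and 28.3 CPM in saline tumours. In cultures the values were 25.8 and 20.9 CPM with mLJZD serum, against 33.5 and 30.1 CPM with control serum. Control cultures were highest, followed by saline tumours, and the 2 mLJZD groups overlapped each other below them.

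Oip5 (ENSMUSG00000072980), the β subunit, was the least abundant of the 4, with 138 to 305 counts in a library. It had 11.4 and 8.32 CPM in mLJZD tumours, against 12.7 and 12.3 CPM in saline tumours. With mLJZD serum it had 8.56 and 10.4 CPM, against 10.8 and 9.78 CPM with control serum. The saline tumours lay above every other group, and the other 3 groups overlapped their neighbours.

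**Figure D2:**
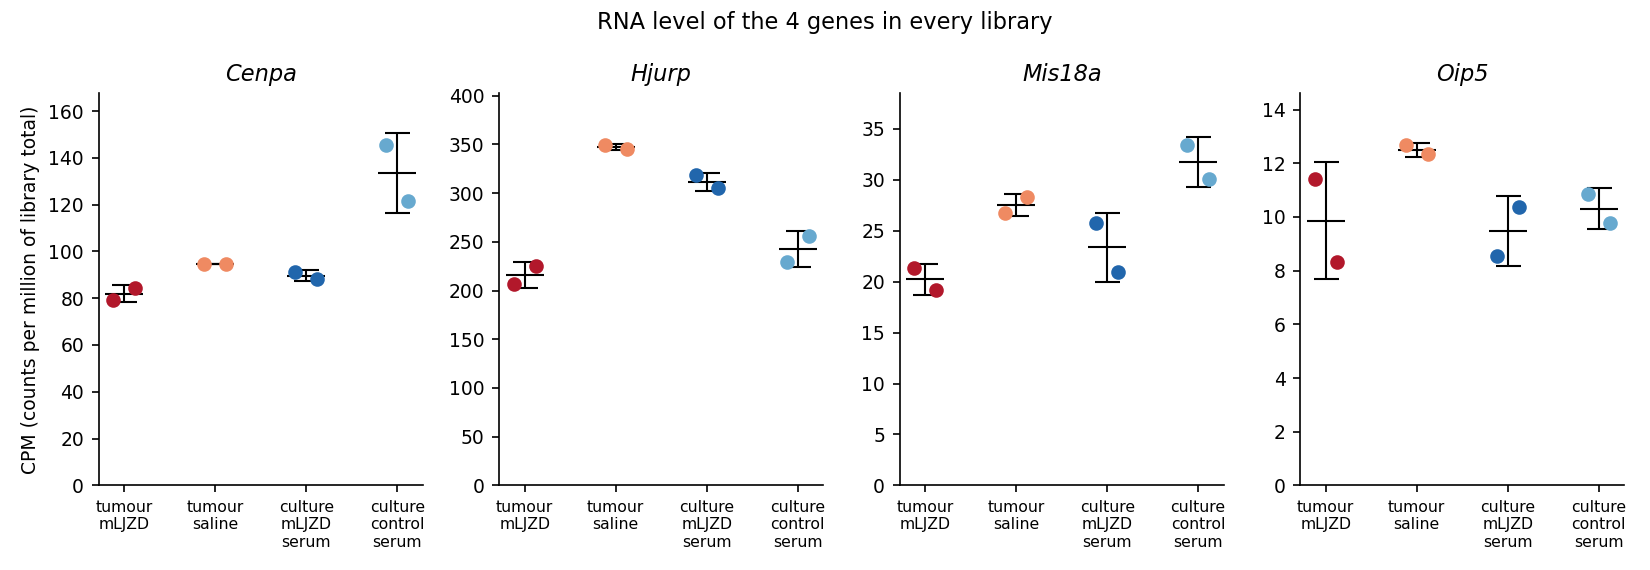
CPM of each gene in every library, for mLJZD tumours, saline tumours, mLJZD cultures and control cultures from left to right; points are libraries, the long bar is the mean and the short bars mark 1 SD (n = 2). Hjurp averages 216 CPM in mLJZD tumours and 347 CPM in saline tumours, and Cenpa averages 89.6 CPM in mLJZD cultures and 134 CPM in control cultures. The length and GC trend is not removed from these values.

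Levels of different genes were compared as CPM per kilobase of the longest protein-coding transcript, whose length is 1466 bases for Cenpa, 4878 for Hjurp, 1333 for Mis18a and 1082 for Oip5. On this scale Cenpa had 55.9 and Hjurp 44.3 CPM per kilobase in mLJZD tumours, against 64.4 and 71.2 in saline tumours. In mLJZD cultures Cenpa had 61.1 and Hjurp 63.9, against 91.1 and 49.8 in control cultures. Mis18a lay below both, between 15.2 and 23.8 CPM per kilobase over the 4 group means, and Oip5 was lowest, between 8.76 and 11.6. The order of Cenpa and Hjurp depended on the transcript used. With the longest transcript of any class, the measure first planned, Cenpa has a retained-intron form of 3806 bases. Its group means were then 21.5 to 35.1, below those of Hjurp in each group. Division by length also leaves in place the length relation of the control cultures, at -1.06 and -0.87 per unit of log10 transcript length. The order of Cenpa and Hjurp in control cultures, set beside that in other groups, is therefore a description only. Levels with the trend removed were not computed.

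The comparison of mLJZD with saline tumours asked what the drug does to the transcriptome of the tumour. Transcripts of 3 of the 4 loading factors fell, and none rose; over all 15417 genes tested, 16.0% were called lower and 15.4% higher. Hjurp fell furthest, to 216 ± 13.1 CPM in mLJZD tumours, against 347 ± 3.33 CPM in saline tumours (SD, n = 2 each), a log2 difference of -0.65 (SE 0.05; adjusted p = 4.03e-08 in edgeR). Mis18a fell to 20.3 ± 1.54 CPM in mLJZD tumours, against 27.5 ± 1.08 CPM in saline tumours, a log2 difference of -0.41 (SE 0.10; adjusted p = 0.00365 in edgeR). The difference in Cenpa was smaller, 82.0 ± 3.64 CPM in mLJZD tumours against 94.5 ± 0.017 CPM in saline tumours, a log2 difference of -0.17 (SE 0.05; adjusted p = 0.0107 in edgeR). Oip5 averaged 9.86 ± 2.18 CPM in mLJZD tumours and 12.5 ± 0.26 CPM in saline tumours, and its log2 difference of -0.30 (SE 0.15; adjusted p = 0.137 in edgeR) did not pass the test. In all 4 genes both mLJZD tumours lay below both saline tumours, which in groups of 2 an exact permutation test cannot place below p = 0.333. The share of all genes separated in this way was not counted, so the separation is a description only. Among all genes tested, 6.01% had a lower log2 fold change than Hjurp, 11.7% than Mis18a, 16.8% than Oip5 and 27.4% than Cenpa.

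The tumour results differed in how far they depended on the fit. The Hjurp call was kept in every alternative fit and with any 1 tumour library left out. The Cenpa call was lost with DESeq2 (adjusted p = 0.101), with all 8 libraries in 1 fit (0.195) and whenever 1 tumour library was left out (0.0550 to 0.155), and the Mis18a call was lost without mLJZD tumour replicate 1 (0.0677) or 2 (0.107). With the length and GC trend removed, the Oip5 difference was called at a log2 fold change of -0.40 (edgeR adjusted p = 0.0351), so that 4 of 4 genes were called lower, beside 15.4% of all genes called lower and 17.9% called higher in that fit.

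In bulk RNA, fewer proliferating cells and less RNA per cell cannot be told apart. Markers of other cell types moved between the same tumours. All 11 tested skeletal muscle markers of 12 were lower in mLJZD tumours, with a summed level of 503 to 510 CPM in mLJZD tumours and 2965 to 2997 CPM in saline tumours. Of the carcinoma epithelium markers 3 of 4 tested were lower, with 183 CPM in each mLJZD tumour and 294 to 299 CPM in saline tumours. B and plasma cell markers were higher for 5 of 9 tested, with 346 to 383 CPM in mLJZD tumours and 49.1 to 50.7 CPM in saline tumours. Neutrophil markers were higher for 7 and lower for 1 of 10 tested (51.6 to 57.7 CPM in mLJZD tumours and 42.3 to 43.6 CPM in saline tumours). Elane and Mpo, counted among the 7, were at 0 in saline tumours and were tested only through their mLJZD counts. Their direction was therefore fixed in advance. Ly6g, also at 0 in saline tumours, was not tested. Erythroid markers were higher for 5 of 5 tested (43.7 to 47.0 CPM in mLJZD tumours and 18.2 to 22.2 CPM in saline tumours). Of 10 macrophage markers 2 were higher and 3 lower (2456 to 2552 CPM in mLJZD tumours and 2679 to 2740 CPM in saline tumours), and of 10 fibroblast markers 3 were higher and 2 lower (3742 to 3827 CPM in mLJZD tumours and 3420 to 3432 CPM in saline tumours). Of 10 T and NK cell markers 2 were lower (78.6 to 87.4 CPM in mLJZD tumours and 98.6 to 103 CPM in saline tumours), and none of 8 endothelial markers was called (221 to 226 CPM in mLJZD tumours and 215 to 217 CPM in saline tumours). The part of these cell types in the differences of the 4 genes was not tested.

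General proliferation transcripts moved with the loading factors in the tumours. Of 28 genes of G2 and mitosis, 19 were lower and 1 was higher, with a median log2 fold change of -0.22 against 0.00 over all genes tested, and of 20 genes of G1/S and replication 18 were lower and none was higher, with a median of -0.36. Over all genes tested, 16.0% were called lower and 15.4% higher. The replicative helicase genes Mcm6 (-0.69) and Mcm3 (-0.68) and the kinetochore gene Cenpf (-0.64) had changes near that of Hjurp. Set against the mean log2 CPM of the 28 G2 and mitosis genes, Cenpa lay at -0.42 to -0.32 in mLJZD tumours and at -0.40 to -0.39 in saline tumours, so that its libraries overlapped. Hjurp lay at 0.96 to 1.09 in mLJZD tumours and at 1.48 to 1.49 in saline tumours, without overlap. Mis18a lay at -2.46 to -2.31 in mLJZD tumours and at -2.22 to -2.12 in saline tumours, also without overlap, and the ranges of Oip5 overlapped. Set against the mean of the 20 G1/S and replication genes the pattern differed. Cenpa then lay at -0.26 to -0.15 in mLJZD tumours and at -0.41 in both saline tumours, above them without overlap, and Hjurp lay at 1.12 to 1.26 in mLJZD tumours and at 1.46 to 1.48 in saline tumours, below them without overlap. Mis18a, at -2.29 to -2.15 in mLJZD tumours and -2.22 to -2.14 in saline tumours, and Oip5 overlapped. These differences from the mean of the list are log2 CPM without length, are descriptions and were not tested.

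In cultures the same question was asked of the cells without a host. As tested, Cenpa and Mis18a fell with mLJZD serum and Hjurp rose, beside 26.6% of 13299 genes called lower and 28.8% called higher. Cenpa averaged 89.6 ± 2.26 CPM in mLJZD cultures and 134 ± 17.1 CPM in control cultures (SD, n = 2 each), a log2 difference of -0.63 (SE 0.09; adjusted p = 4.11e-05 in edgeR). Mis18a averaged 23.4 ± 3.42 CPM in mLJZD cultures and 31.8 ± 2.42 CPM in control cultures, a log2 difference of -0.51 (SE 0.12; adjusted p = 0.00287 in edgeR). Hjurp averaged 312 ± 9.30 CPM in mLJZD cultures and 243 ± 18.6 CPM in control cultures, a log2 difference of 0.30 (SE 0.07; adjusted p = 0.00304 in edgeR), whose sign turned with the length and GC trend removed. Oip5 averaged 9.47 ± 1.29 CPM in mLJZD cultures and 10.3 ± 0.75 CPM in control cultures, with overlapping libraries and a log2 difference of -0.17 (SE 0.17; adjusted p = 0.401 in edgeR).

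Over all genes, log2 fold changes in cultures were related to transcript length. Among protein-coding genes of 1000 to 2000 bases, which include Cenpa, Mis18a and Oip5, the median log2 fold change was -0.45 and 10.5% of 2221 genes had a positive value. Among genes of 4000 to 6000 bases, which include Hjurp, it was 0.38 and 78.7% of 2335 genes had a positive value. In the tumours the medians of these 2 length classes were 0.01 and -0.03. Once the length and GC trend of each library was removed, Cenpa was still lower in mLJZD cultures, at a log2 difference of -0.38 (SE 0.08; adjusted p = 0.00191 in edgeR). Hjurp then stood at -0.11 (SE 0.06, edgeR adjusted p = 0.198), Mis18a at -0.24 (SE 0.12, 0.140) and Oip5 at 0.14 (SE 0.15, 0.535), none of them called, beside 16.3% of genes called lower and 17.3% called higher in that fit. The correction depends on the transcript taken as the length of a gene. With the longest transcript of any class, Mis18a was called at -0.48, Cenpa stood at -0.80 and Hjurp at -0.04 (edgeR adjusted p = 0.642).

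The proliferation lists went both ways in cultures. Of the 28 G2 and mitosis genes 12 were higher and 11 lower as tested, with a median of 0.08 against -0.01 over all genes, led by Mki67 (1.31) and Cenpe (1.11) upwards and Ube2c (-0.91) downwards. Of the 20 G1/S and replication genes 5 were higher and 6 lower, with a median of 0.03. Over all genes 28.8% were called higher and 26.6% lower as tested, and 17.3% and 16.3% with the length and GC trend removed. With the length and GC trend removed, 8 were higher and 6 lower among the G2 and mitosis genes, with Mki67 at 0.30, Cenpe at 0.21 and Ube2c at -0.56, and 5 higher and 4 lower among the G1/S and replication genes. Of the lists of other cell types, the fibroblast markers summed to 1857 to 2193 CPM in mLJZD cultures and 1862 to 1998 CPM in control cultures. The cultures had no host, so this list does not separate host cells from CT26 cells. The macrophage markers summed to 9.15 to 9.91 CPM in mLJZD cultures and 9.28 to 11.9 CPM in control cultures, with C1qa, C1qb, C1qc and Cd163 at 0 in both.

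**Figure D3:**
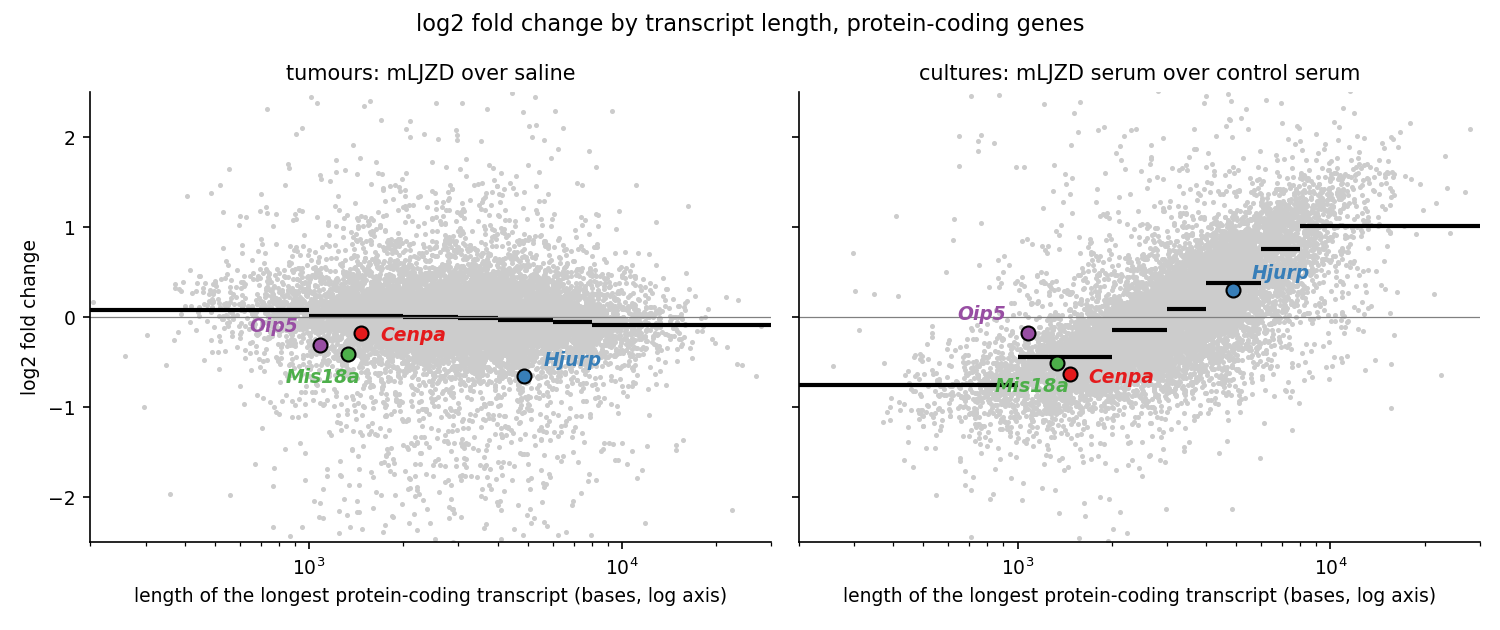
Log2 fold change of protein-coding genes against the length of the longest protein-coding transcript (bases, log axis), mLJZD over saline tumours on the left and mLJZD over control serum cultures on the right; grey points are genes, black lines are medians of length classes, and points beyond the vertical range are not drawn. In cultures the medians climb with length, from -0.45 at 1000 to 2000 bases to 0.38 at 4000 to 6000 bases, and Cenpa at -0.63, Mis18a at -0.51, Oip5 at -0.17 and Hjurp at 0.30 are marked; in tumours the medians stay near 0 and all 4 genes lie below them.

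Without the drug, Cenpa, Hjurp and Mis18a were called between saline tumours and control cultures, as were 80.6% of all genes tested. Saline tumours differ from control cultures in the material, the host cells and the serum together, and 44.9% of 15332 genes were called higher and 35.7% lower. The median log2 difference of all genes was 0.15 as tested and -0.25 with the length and GC trend removed. Values from these fits therefore have different centres, and a like value in both is not an unchanged place among all genes. Cenpa was lower in saline tumours, at 94.5 CPM against 134 CPM in control cultures, a log2 difference of -0.66 (SE 0.08; adjusted p = 2.29e-05 in edgeR), and at -0.69 with the length and GC trend removed. Mis18a was lower at -0.37 (SE 0.09, edgeR adjusted p = 0.00385), at -0.38 with the trend removed, and at -0.21 (0.0590) with library totals in place of TMM scaling, a choice that moved the median of all genes by 0.16. Hjurp was higher in saline tumours as tested, at a log2 difference of 0.36 (SE 0.05; adjusted p = 0.000127 in edgeR), and lower at -0.41 (2.82e-06) with the trend removed, in a fit that called 31.6% of genes higher and 48.5% lower. Oip5 had a log2 difference of 0.12 (SE 0.13; adjusted p = 0.430 in edgeR), and 0.14 with the trend removed, not called in either fit.

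Markers of other cell types were higher in saline tumours for 11 of 11 tested skeletal muscle, 10 of 10 macrophage and 10 of 10 fibroblast markers. So were 10 of 10 T and NK cell, 8 of 8 endothelial, 5 of 5 neutrophil and 4 of 4 erythroid markers, beside 44.9% of all genes. Many of them, such as C1qa, Cd3e and Myh4, were at 0 in control cultures and were tested only through their tumour counts. Their direction was therefore fixed in advance. The fibroblast list summed to 1862 to 1998 CPM in control cultures and does not separate host cells from CT26 cells. Of 6 tested B and plasma cell markers 5 were higher and 1, Tnfrsf17, was lower, at -1.73. The part of these cell types in the 4 values was not tested. Of 5 kinases and cyclins that regulate licensing 1 was higher, Ccna2 at 0.46, and 3 were lower, Plk1 at -0.43 and Cdk1 at -0.42 among them. With the trend removed the counts were again 1 and 3, with Ccna2 at 0.12, Plk1 at -0.44 and Cdk1 at -1.05. The median of all genes in that fit was -0.25.

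The difference of the drug effects themselves was tested over all 8 libraries, as the effect in tumours minus the effect in cultures. It was positive for Cenpa, at 0.55 on the log2 scale (SE 0.12, edgeR adjusted p = 0.00107), so that as tested Cenpa was lowered less in tumours than in cultures. It was negative for Hjurp, at -0.87 (SE 0.09, edgeR adjusted p = 4.35e-07). Protein-coding genes of 1000 to 2000 bases, the length class of Cenpa, had a median difference of 0.52, and 80.7% were positive. Those of 4000 to 6000 bases, the class of Hjurp, had a median of -0.31, and 29.0% were positive. Neither Mis18a, at 0.18 (SE 0.16, 0.396), nor Oip5, at -0.05 (SE 0.23, 0.953), passed the test, which does not show that their effects were alike. Of 16090 genes, 23.8% had a positive and 20.5% a negative difference called, and the positive share among the called genes was 53.7% with TMM scaling and 39.7% with library totals. With the length and GC trend removed, the difference in Hjurp was -0.50 (SE 0.07, edgeR adjusted p = 7.12e-05), that in Cenpa was 0.22 (SE 0.11, 0.150), that in Mis18a turned to -0.19 (0.404), that in Oip5 was -0.51 (0.0922), and 16.0% of genes had a positive and 15.0% a negative difference called.

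**Figure D4:**
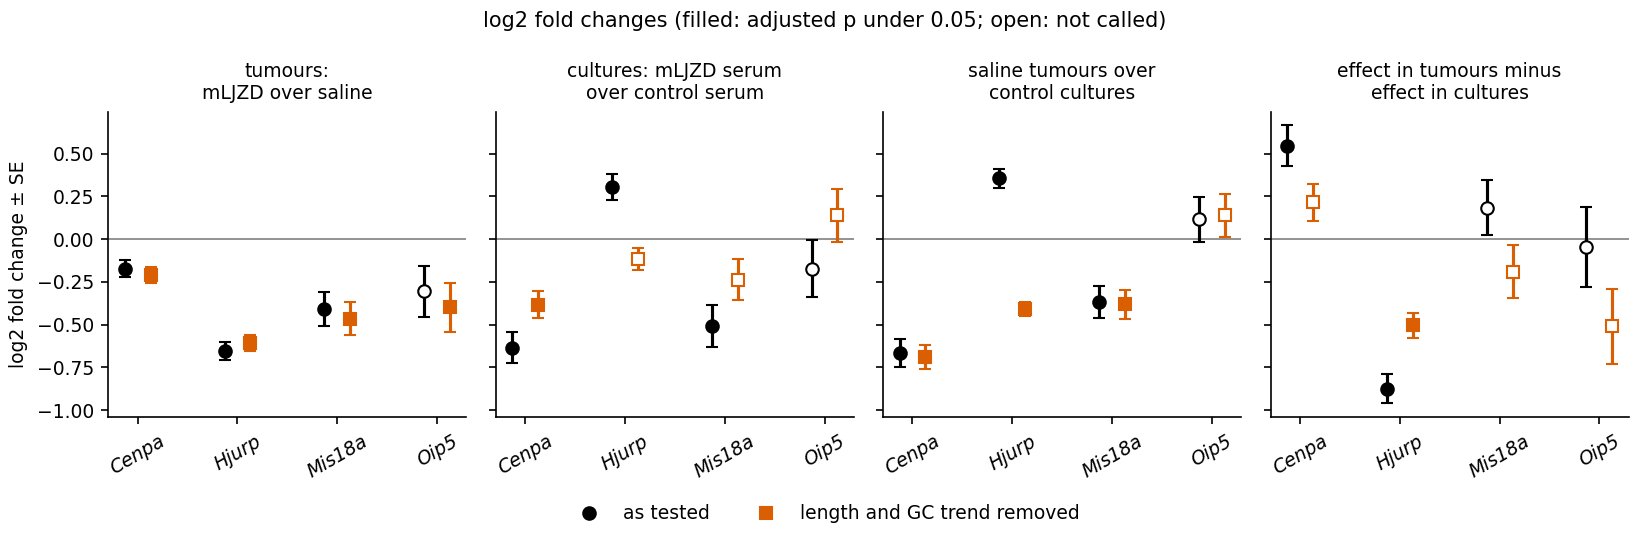
Log2 fold changes of the 4 genes with 1 SE in the 3 contrasts and their log2 difference of effects in the last panel, as tested (black circles) and with the length and GC trend removed (orange squares); filled symbols passed an adjusted p of 0.05. In tumours no gene changes sign between the fits and Oip5 is called only with the trend removed, at -0.40, while Hjurp changes sign in cultures, at 0.30 as tested and -0.11 with the trend removed, and between saline tumours and control cultures.

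Around the 4 genes, the 5 kinases and cyclins that regulate licensing were lower in tumours for 3 and higher for none, with a median log2 fold change of -0.24, against 0.00 over all genes. The called genes were Ccna2 (-0.37) and Ccnb1 (-0.24), the cyclins A2 and B1, and Plk1 (-0.35), which encodes Polo-like kinase 1. In cultures 2 of the 5 were lower and none was higher, with a median of -0.06. Cdk1 (-0.57) and Plk1 (-0.51) were the lower genes there, and with the trend removed Cdk1, at -0.95, was the 1 gene of the 5 still called. Over all genes, 16.0% were called lower and 15.4% higher in tumours, and 26.6% lower and 28.8% higher in cultures. With the trend removed these shares were 15.4% and 17.9% in tumours, and 16.3% and 17.3% in cultures. Counts of this list and of the lists that follow stand beside these shares, and no list was tested as a set.

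Of 11 histone-handling and chromatin partners of CENP-A loading, 3 were higher and 3 lower in tumours, with a median of -0.07. Racgap1 (-0.44) and Ect2 (-0.23), which regulate small GTPases and help to keep new CENP-A in place in human cells, were lower, as was Ssrp1 (-0.22) of the histone chaperone FACT. The histone-binding genes Nap1l1 (0.24), Rbbp4 (0.18) and Npm1 (0.16) were higher. In cultures 5 were higher and 1 lower as tested, with a median of 0.16, led by Supt16 (1.03), the other FACT subunit, and by Rsf1 (0.91) and Smarca5 (0.64) of the remodelling complex RSF. With the trend removed 2 were higher, Supt16 (0.56) and the acetyltransferase gene Kat7 (0.35), and 2 lower, Rbbp4 (-0.68) and Nap1l1 (-0.43), while Rsf1 and Smarca5 had values below 0, at -0.20 and -0.09, and were not called.

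Of the 4 genes whose proteins bind CENP-A nucleosomes or their DNA, Cenpl, the partner of Cenpn, was the 1 called in tumours, where it was lower (-0.36); with the trend removed Cenpb was also called there, higher at 0.17 (edgeR adjusted p = 0.00507). Cenpb (-0.45) and Cenpl (-0.33) were lower in cultures, also with the trend removed (-0.62 and -0.88). Cenpc1 and Cenpn were called in neither material, and the medians of the 4 were -0.00 in tumours and -0.17 in cultures. Among 4 genes of CENP-A ubiquitination and SUMO removal, Rbx1 and Cops8 were lower in tumours (-0.17 and -0.14) and in cultures (-0.52 and -0.31). Senp6 (0.55) and Cul4a (0.31) were higher in cultures as tested, and neither was called with the trend removed.

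The chaperones that handle other forms of H3 were lower for 4 and higher for 1 of 13 in tumours, with a median of -0.14. Mcm2 (-0.56), the helicase subunit that binds histones at the replication fork, Chaf1b (-0.42) and Chaf1a (-0.19) of CAF-1, and Asf1b (-0.21) fell, and Daxx (0.30), a chaperone of H3.3, rose. With the trend removed 3 were lower and 1 higher in tumours, and Chaf1a was no longer called, at -0.10 (edgeR adjusted p = 0.152). In cultures 5 were higher and 3 lower, beside 28.8% and 26.6% of all genes, with a median of 0.14, led by Atrx (1.60) and Ubn2 (1.24). With the trend removed 4 were higher, Atrx at 0.53 among them, and 2 lower, beside 17.3% and 16.3% of all genes. Ubn2 then stood at 0.01 and was not called.

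**Figure D5:**
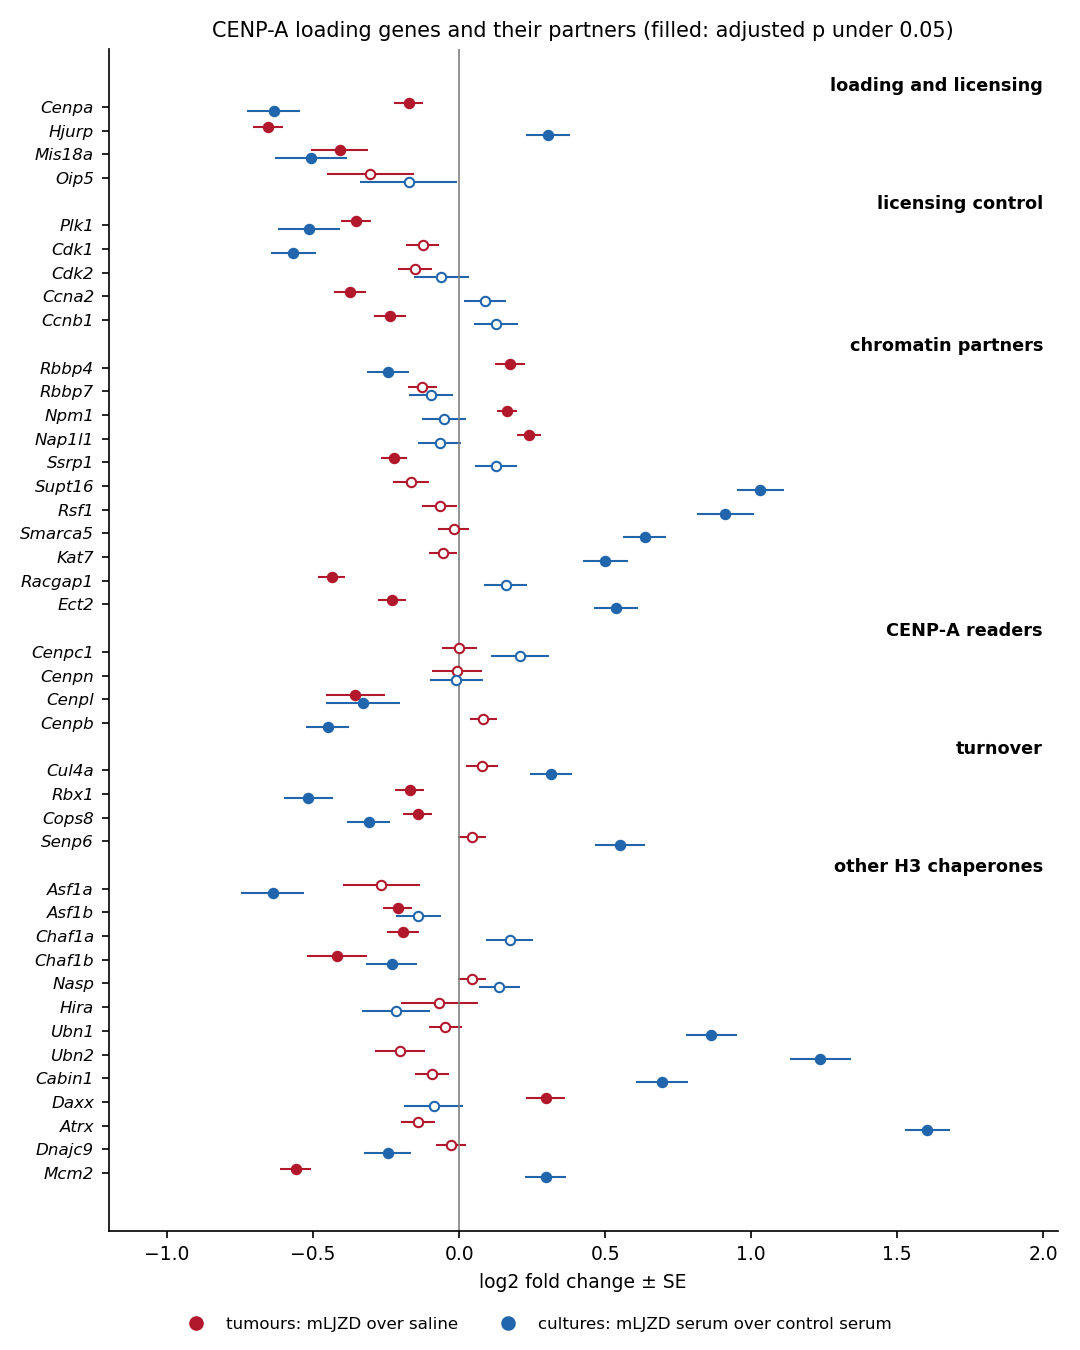
Log2 fold change with 1 SE of the 4 genes and of related genes in tumours (mLJZD over saline, red) and in cultures (mLJZD serum over control serum, blue), without removal of the length trend; filled points passed an adjusted p of 0.05. Hjurp is at -0.65 in tumours and 0.30 in cultures, Cenpa at -0.17 in tumours and -0.63 in cultures, and Atrx, at 1.60 in cultures, was not called in tumours.

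Across the 8 libraries the 4 genes did not share 1 pattern. The root mean square difference of centred log2 CPM was smallest between Cenpa and Mis18a (0.14) and largest between Cenpa and Hjurp (0.41). Among 10016 protein-coding genes averaging at least 5 CPM, the nearest patterns to Cenpa were those of Smim14 (0.067), Mrps6 (0.068) and Usf1 (0.072). Nearest to Hjurp were Ccdc77 (0.050), Zfp251 (0.064) and the replication licensing gene Cdc6 (0.079). Nearest to Mis18a were Aamp (0.056), Epn1 (0.067) and Nsmce1 (0.068), and nearest to Oip5 were Zc3h3, Samd14 and Efna1 (0.10 to 0.11). All these patterns share the 8 libraries and their relation to length.

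The counts of Oip5 carry 1 further limit. Oip5 and Nusap1, a gene of a spindle protein, lie on opposite strands with starts 171 bases apart and share 172 of the 1778 exon bases of Oip5 in the annotation used. The strand setting of the counting is not given in the sources used here, so reads of the shared bases cannot be assigned. Nusap1 averaged 86.2 CPM in mLJZD tumours and 98.8 CPM in saline tumours, and 42.6 CPM in mLJZD cultures and 49.3 CPM in control cultures. No other annotated gene overlapped Cenpa, Hjurp or Mis18a.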

How the data were processed

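RNA of 8 libraries was used, 2 in each of 4 groups. The authors deposited raw counts per gene, and the submitters' processing notes name the build GRCm39, featureCounts 2.0.3, HISAT2 2.2.1, SAMtools 1.14, FastQC 0.12.1 and Trim Galore. The sources used here do not give the annotation release, the strand setting or the treatment of multi-mapping reads. Symbols and transcript lengths came from GENCODE M21, of an earlier build, which named 52029 of 56953 identifiers; no coordinates from it are printed, and its exon positions served only to find overlapping neighbours.

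The test was edgeR's two-sided quasi-likelihood F test (4.0.16, in R 4.3.3) on TMM-scaled counts of genes kept by filterByExpr. P-values were adjusted over every gene in the fit by Benjamini-Hochberg, and a call needs an adjusted p below 0.05. Each contrast was fitted on its own libraries, and the difference of effects on all 8. The SE was taken as the absolute log2 fold change over the root of F. CPM is scaled to the library total. Trends with length and GC content of the longest protein-coding transcript were removed as splines with 5 degrees of freedom each, fitted per library. DESeq2 1.42.0, other scalings, no filter, a replicate block and left-out libraries were alternatives. Removal of the trend with the length of the longest transcript of any class was added after seeing the data. The tests were run on simulated counts with a single fixed dispersion. That run does not show how well the adjusted p-values hold for these libraries. Libraries of a group differed beyond sampling noise (chi-square per degree of freedom 2.58 to 10.7). Named genes were the 4 genes in every comparison, up to 4 called genes with the largest change per list, the 3 nearest patterns per gene and overlapping neighbours; further list genes were named after their values were seen. Of 1 list, 1 gene is not reported here. The members and lists were chosen with earlier results of these data known.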

Additional observations from a re-analysis of the deposited data

Results flagged for a closer look

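The drug effect differed between tumours and cultures for 2 of the 4 genes by the test of the difference itself. That count is near the share over all genes, of which 44.4% of 16090 were called. For Hjurp the effect in tumours minus the effect in cultures was -0.874 on the log2 scale, and it passed the test with and without the length and GC trend. For Cenpa it was 0.547, and it did not pass the test with the trend removed, at 0.22 (edgeR adjusted p = 0.150). The control cultures enter both differences.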

How the results depend on the processing

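Limits common to all results are the 2 libraries per group, the unknown origin of replicates, and the length relation of the control cultures. Replicate numbers correlated at -0.079 in tumours and 0.016 in cultures, so the numbers were not taken as pairs; a fit with the replicate block called 4461 genes in tumours, against 4835 without it, and changed no call of the 4 genes.

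For Cenpa in tumours (-0.17) the values at which the call was lost were -0.170 with DESeq2, -0.166 with all 8 libraries in 1 fit and -0.199 to -0.139 with 1 library left out; for Mis18a in tumours the values with 1 library left out were -0.502 to -0.316. The number of genes called in tumours was 1087 to 3536 with 1 library left out, 1087 without mLJZD replicate 1 and 1974 without mLJZD replicate 2, and the called genes of G2 and mitosis then numbered 6 and 9, against 20. With the length and GC trend removed, Oip5 in tumours was called at -0.40, Hjurp in cultures stood at -0.11, Mis18a in cultures at -0.24 and Oip5 in cultures at 0.14; 4473 genes were called in cultures, against 7365, and 14 genes of G2 and mitosis, against 23. Hjurp between saline tumours and control cultures stood at -0.41, in a fit where the median of all genes was -0.25. The differences of effects stood at 0.22 for Cenpa and -0.19 for Mis18a. With the longest transcript of any class as the length, Hjurp in cultures stood at -0.044 and Oip5 at 0.0016, and between saline tumours and control cultures Hjurp stood at -0.34 and Oip5 at -0.0091. With library totals only, Mis18a between saline tumours and control cultures stood at -0.21. The difference of effects in Oip5 ran from -0.320 to 0.167 with 1 library left out. Upper-quartile scaling moved the median of all genes in cultures by -0.11, and library totals moved that of the difference of effects by -0.16. Of 378 recomputed list counts, 35 moved by over 1.5 times. The causes were not tested.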
